A study of Mus musculus with 3 samples.

Results

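10 genes of the interleukin-1 and interleukin-18 systems were followed: the ligands Il1a, Il1b, Il18 and Il33, the antagonist Il1rn, the interleukin-18 binding protein Il18bp, the decoy receptor Il1r2, and the receptor chains Il1r1, Il1rap and Il18r1. They were taken by gene symbol, and all 10 were found among the 55536 annotated genes. The libraries came from polyadenylated RNA of bone-marrow-derived macrophages, phagocytes grown from marrow precursors of C57BL/6J mice, whose age and sex the labels give as not collected. All 3 libraries belong to 1 group, which had 12 h of lipid A at 100 ng/ml, a 12 h washout and then 480 min of lipid A at the same dose. Lipid A is the part of bacterial lipopolysaccharide that Toll-like receptor 4 senses; the labels' treatment fields instead say lipoprotein A. No unstimulated library was analysed here, so levels within the libraries and the spread between them are described, and no response. The replicates, numbered 1, 2 and 3, share 1 donor record, and the labels call them biological replicates without saying whether each is its own animal. P-values for variation between libraries therefore measure only the spread between these samples, which could be partly technical. Those that compare the 2 quantifications of each library concern estimates from the same reads and not the cells.

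Interleukin-1 alpha and beta, the products of Il1a and Il1b, bind the receptor chain IL1R1, which signals once the shared chain IL1RAP joins it. The product of Il1rn occupies IL1R1 without recruiting IL1RAP, and IL1R2 binds ligand but carries no signalling domain. Interleukin-18 acts through IL18R1 and IL18RAP and is held in solution by IL18BP, while interleukin-33 uses ST2, the product of Il1rl1, together with IL1RAP. Macrophages are a main source of interleukin-1 beta and interleukin-18, both of which are made as precursors and cut by caspase-1 in the inflammasome.

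Levels are given in TPM, a transcript abundance scaled to 1 fixed sum per library, which corrects for transcript length and library size and so allows genes to be compared. The first of the 2 deposited quantifications is used unless the second is named, and values after ± are SDs over the 3 libraries. Replicates 1, 2 and 3 held 24596382, 54016971 and 43127749 expected counts. Replicate 2 stood apart in that mitochondrial mRNAs took 6.86% of its counts against 1.06% and 1.13% in replicates 1 and 3, and its fragments were estimated as shorter, at 218 bases against 257 and 285. Of the macrophage markers, 8 of 8 reached 1 TPM in every library (summed 13751 to 17198 TPM). The neutrophil list summed to 3.98 to 17.2 TPM with Ly6g at 0 counts, the fibroblast and stroma list to 0.68 to 3.05 TPM, and epithelial markers had 0 of 4 at 1 TPM. The T and NK cell list summed to 20.3, 114 and 34.1 TPM, nearly all of it Cd4. The endothelial list summed to 37.8, 16.2 and 27.2 TPM. Within it Kdr stood at 35.2, 7.9 and 23.8 TPM and Cdh5 at 0.36, 5.82 and 0.45 TPM.

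The 3 most abundant coding transcripts of Il1rn, on which the isoform results turn, differ where their coding sequences begin. The runs shown start at the start codon and stop at the end of the exon segment that these 3 transcripts share (chr2:24345520-24345571, mm10, plus strand). Capitals mark the coding bases of each transcript before the shared segment, and lower case the shared segment. The capital bases of Il1rn-202 are also part of Il1rn-201, which starts at 24345310, but lie before its start codon. Il1rn-201 (178 codons) has the length of the precursor with a signal peptide, which is secreted, and Il1rn-204 (159 codons), which starts 8457 bases upstream, that of an intracellular form.
Il1rn-201: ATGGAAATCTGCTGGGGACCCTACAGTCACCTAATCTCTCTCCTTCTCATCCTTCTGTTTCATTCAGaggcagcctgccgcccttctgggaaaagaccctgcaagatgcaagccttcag
Il1rn-202: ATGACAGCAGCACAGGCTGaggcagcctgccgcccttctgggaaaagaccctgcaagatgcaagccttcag
Il1rn-204: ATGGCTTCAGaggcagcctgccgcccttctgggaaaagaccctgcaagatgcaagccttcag
The part in capitals measured 67 bases in Il1rn-201 (chr2:24345453-24345519), 19 bases in Il1rn-202 (chr2:24345350-24345368) and 10 bases in Il1rn-204 (chr2:24336983-24336992), against 52 shared bases.

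The 250 bases before 4 RefSeq start sites (GRCm38.p6) are shown for the pair of interleukin-1 agonists and, for Il1rn, 1 upstream and 1 downstream start. Capitals mark matches to the letters searched, on both strands except for the TATA box. The letters of the AP-1 site were TGANTCA. For C/EBP factors, which bind many myeloid promoters, they were TTNNGNAA. For PU.1, a factor that defines the macrophage lineage, they were GAGGAA. The TATA box, searched on the coding strand, was TATAAA, and the kappaB consensus was searched as well.
Il1a, chr2:129309973-129310222, minus strand: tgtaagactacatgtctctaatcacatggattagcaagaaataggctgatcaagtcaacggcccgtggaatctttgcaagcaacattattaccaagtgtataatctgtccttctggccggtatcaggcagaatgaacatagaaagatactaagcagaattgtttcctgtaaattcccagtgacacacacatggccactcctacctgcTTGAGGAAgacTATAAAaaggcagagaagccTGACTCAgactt
Il1b, chr2:129371140-129371389, minus strand: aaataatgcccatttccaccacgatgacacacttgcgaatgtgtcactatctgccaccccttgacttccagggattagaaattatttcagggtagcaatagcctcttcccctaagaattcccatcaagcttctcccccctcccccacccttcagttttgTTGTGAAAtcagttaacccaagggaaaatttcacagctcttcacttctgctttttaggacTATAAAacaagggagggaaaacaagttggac
Il1rn upstream start, chr2:24336610-24336859, plus strand: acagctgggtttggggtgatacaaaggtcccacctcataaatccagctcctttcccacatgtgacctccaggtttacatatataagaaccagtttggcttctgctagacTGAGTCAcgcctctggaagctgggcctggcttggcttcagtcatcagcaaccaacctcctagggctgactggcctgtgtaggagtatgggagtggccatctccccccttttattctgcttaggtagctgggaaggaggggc
Il1rn downstream start, chr2:24345041-24345290, plus strand: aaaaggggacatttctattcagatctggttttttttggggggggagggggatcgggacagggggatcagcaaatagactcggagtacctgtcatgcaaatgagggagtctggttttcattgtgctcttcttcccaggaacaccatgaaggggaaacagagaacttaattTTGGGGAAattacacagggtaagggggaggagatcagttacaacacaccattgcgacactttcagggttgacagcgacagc
TATA letters lay 32 to 27 bases before the start of Il1a and 31 to 26 bases before that of Il1b, and neither Il1rn window held them. The Il1a window also held AP-1 letters 12 to 6 bases before the start, and C/EBP letters (43 to 36 bases before) that overlap PU.1 letters (41 to 36 bases before). The Il1b window held C/EBP letters 91 to 84 bases before the start. The upstream Il1rn window held AP-1 letters (141 to 135 bases before), and the downstream one C/EBP letters (81 to 74 bases before). A further RefSeq start of Il1rn at 24345371 has a window that overlaps the downstream one; it held the same C/EBP letters, there 161 to 154 bases before the start, and 2 overlapping matches 65 to 58 and 64 to 57 bases before it. Among 32851 windows of this length, 7.59% held the TATA letters, 6.75% AP-1, 36.8% C/EBP, 23.3% PU.1 and 7.25% the kappaB consensus, which occurred in none of the 4 windows. These matches describe letters and show no binding.

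Il1a, Il1b, Il18 and the soluble inhibitors Il1rn and Il18bp were abundant in these macrophages, and Il33 and the ligand-binding receptor chains were not. Of the 10 genes, 6 reached 1 TPM in every library (Il18bp, Il1rn, Il1b, Il1a, Il18 and Il1rap), and 3 stayed under 1 TPM in every library (Il1r1, Il18r1 and Il33), while Il1r2 lay on both sides. Among all 22028 protein-coding genes, 42.9% reached 1 TPM in every library.

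Il1b (ENSMUSG00000027398.13, chr2:129364570-129371139, minus strand) stood at 292 TPM in replicate 1, 132 TPM in replicate 2 and 130 TPM in replicate 3. Replicate 1 was high and the other libraries lay together, 2.24-fold lower at the lowest. Il1a (ENSMUSG00000027399.1, chr2:129299610-129309972, minus strand), its neighbour on chromosome 2, stood at 267, 152 and 82.0 TPM in the same order. Here too replicate 1 was highest, and the 3 values were spread 3.26-fold. In this quantification both agonists had the widest relative spread of the 5 most abundant of the 10 genes, with coefficients of variation of 50.1% for Il1b and 56.0% for Il1a. In the second quantification that of Il1a was 41.5%, and that of Il1b, 29.1%, was below the 33.7% of Il18bp.

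Il18 (ENSMUSG00000039217.13, chr9:50554827-50581840, plus strand), the other abundant agonist, stood at 173, 173 and 154 TPM. Its highest and lowest libraries differed 1.12-fold, the least of the 6 genes at 1 TPM or more throughout. Il33 (ENSMUSG00000024810.16, chr19:29925114-29960718, plus strand), an alarmin of barrier and stromal cells, had 1, 0 and 1 counts. The 0 in replicate 2 allows up to 3 counts, or 0.0661 TPM, a limit that covers counting error only.

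Il1rn (ENSMUSG00000026981.15, chr2:24336853-24351494, plus strand) stood at 281, 228 and 262 TPM. Its level exceeded that of 94.7% to 95.1% of the 10350 protein-coding genes that reached 1 TPM in at least 1 library. Il18bp (ENSMUSG00000070427.4, chr7:102014885-102018690, minus strand) was the most abundant of the 10 genes in every library, at 422, 546 and 413 TPM. Replicate 2 was its highest library.

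Il1r2 (ENSMUSG00000026073.13, chr1:40074079-40125231, plus strand), the decoy receptor, stood at 1.32, 0.24 and 2.78 TPM on 26, 12 and 92 counts. Exact 95% Poisson intervals, which cover counting error only, were 0.859 to 1.93, 0.124 to 0.421 and 2.24 to 3.41 TPM and did not overlap. Replicate 2, the deepest library, was the lowest, and without it Il1r2 would join the genes at 1 TPM or more throughout, making 7.

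Among the receptor chains, Il1rap (ENSMUSG00000022514.14, chr16:26581704-26730117, plus strand) stood at 3.25, 4.69 and 3.14 TPM, highest in replicate 2. The ligand-binding chain Il1r1 (ENSMUSG00000026072.12, chr1:40225080-40317257, plus strand) stood at 0.06, 0.09 and 0.08 TPM on 5, 22 and 14 counts, with overlapping counting intervals from 0.0209 to 0.150 TPM. The ligand-binding chain for interleukin-18, Il18r1 (ENSMUSG00000026070.15, chr1:40465552-40500854, plus strand), had 0, 3 and 0 counts, and the zeros allow up to 0.0778 TPM in replicate 1 and 0.0426 TPM in replicate 3. In bulk RNA, fewer cells expressing a gene and less RNA per cell cannot be told apart.

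**Figure D1:**
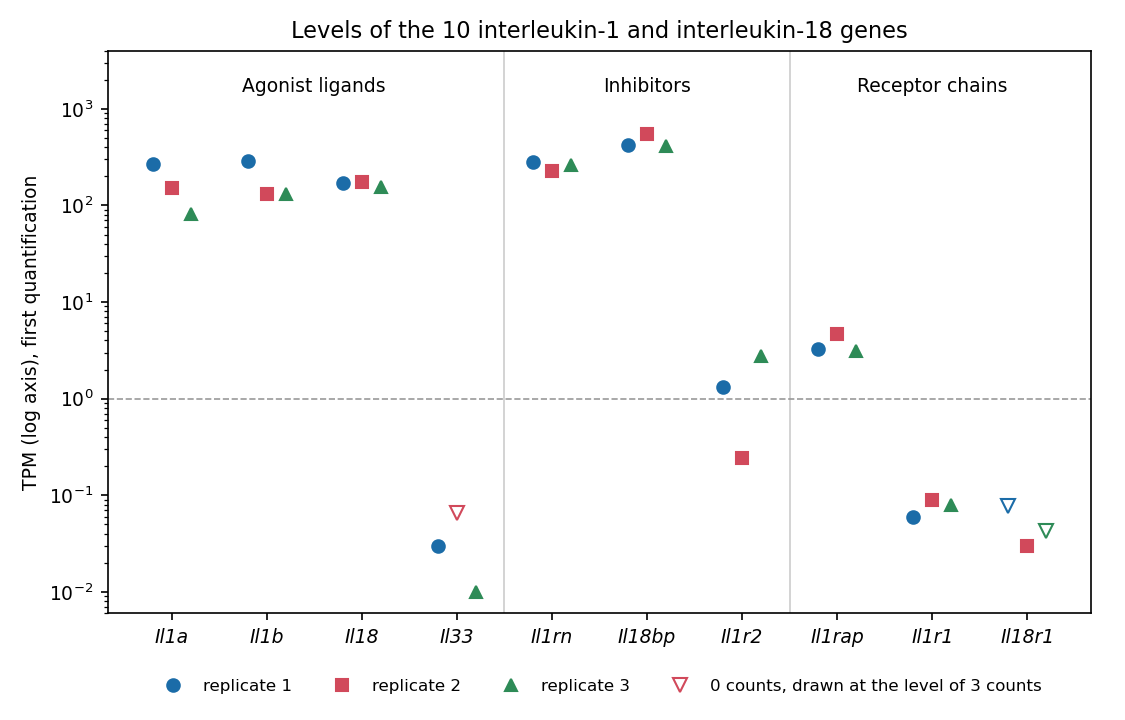
TPM of each gene in each library (log axis, 1 marker shape per replicate), grouped as agonist ligands, inhibitors and receptor chains; the dashed line marks 1 TPM, and open triangles mark libraries with 0 counts, drawn at the level of 3 counts. Il1a, Il1b, Il18, Il1rn and Il18bp lie between 82.0 and 546 TPM, and Il1r1, Il18r1 and Il33 below 0.1 TPM.

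In order of mean level the genes ran Il18bp (460 ± 74.2 TPM), Il1rn (257 ± 27.0), Il1b (185 ± 92.6), Il1a (167 ± 93.5), Il18 (167 ± 10.6), Il1rap (3.69 ± 0.865), Il1r2 (1.45 ± 1.27), Il1r1 (0.0767 ± 0.0153), Il33 and Il18r1. The ranges of Il1rn and Il1b, of Il1b and Il1a, of Il1a and Il18, and of Il33 and Il18r1 overlapped, so these neighbours are not ordered beyond their spread. In the second quantification Il18 (162 ± 30.3 TPM) stood above Il1b (147 ± 42.9) and Il1a (136 ± 56.3), and Il18r1 (0.114 ± 0.104) above Il1r1 (0.101 ± 0.0406).

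Several of the genes lie side by side with relatives. On chromosome 1, 6 receptor genes (Il1r2, Il1r1, Il1rl2, Il1rl1, Il18r1 and Il18rap) lie within 478 kb (chr1:40074079-40551705), and no value among them exceeded 2.78 TPM in any library. On chromosome 2, Il1rn ends a run of 6 ligand genes spanning 198 kb (chr2:24153161-24351494), of which the other 5 (Il1f8, Il1f9, Il1f6, Il1f5 and Il1f10, the interleukin-36 ligands, their antagonist and interleukin-38) were each under 1 TPM in every library. In the second quantification Il1f9 stood at 1.66, 0.51 and 0.66 TPM, against 0.13, 0.02 and 0.05 TPM in the first. Il1a and Il1b form a separate block of 71.5 kb on that chromosome (chr2:129299610-129371139).

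Genes annotated on the opposite strand could share reads with some of the 10 where counting ignored strand, which is not given in the sources used here. Gm14023 overlaps Il1a and stood at 0.203 ± 0.162 TPM, and Il1bos overlaps Il1b and stood at 0.18 ± 0.144 TPM. Gm16894 over Il1r2 stood at 0.0967 ± 0.0153 TPM, and Gm20319 over Il1rap was at 0 TPM in every library. Il18 overlaps Bco2, a carotenoid-cleaving oxygenase (5.87 ± 0.533 TPM), by 355 bases, and Tex12 (0.21 ± 0.07 TPM). Il18bp shares 80 bases with Numa1, a spindle protein (29.0 ± 5.78 TPM).

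Antagonists and binding proteins were next set against their targets within each library, as log2 ratios of TPM + 0.1. Of 8 pairs, 2 were separated, meaning that the same gene was higher in every library and the mean ratio exceeded 3 SD. No test is given, since exact sign flips of 3 values reach at best p = 0.25. Il18bp exceeded Il18 in every library, by 2.44-fold in replicate 1, 3.15-fold in replicate 2 and 2.68-fold in replicate 3 (log2 ratio 1.45 ± 0.19).

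The interleukin-1 antagonist showed no such fixed ratio to its agonists. Il1rn was 1.05-fold, 1.498-fold and 3.19-fold the level of Il1a in replicates 1, 2 and 3 (log2 ratio 0.78 ± 0.82), and against Il1b it stood at 0.96-fold, 1.72-fold and 2.01-fold. Il1rn was thus level with both agonists in replicate 1 and above both in replicates 2 and 3. Set against the sum of Il1a and Il1b, a measure chosen after the values were seen, Il1rn amounted to 50.3%, 80.1% and 123% in replicates 1, 2 and 3. Il1rn itself differed 1.23-fold between its highest and lowest library, while the sum stood at 559, 284 and 212 TPM. Il1b over Il1a (0.20 ± 0.44) and Il18 over Il1b (-0.04 ± 0.62) changed sign between libraries. Without replicate 1, Il1rn over Il1b and Il18 over Il1b also met the rule, which made 4 separated pairs.

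Among receptors, the shared chain Il1rap stood far above the ligand-binding chain Il1r1, by 50.6-fold, 49.5-fold and 39.0-fold from counts per effective length. Exact 95% counting intervals of these ratios were 21.4 to 157, 32.5 to 79.5 and 23.0 to 72.0. With 0.1 TPM added, an amount above the level of Il1r1 itself, the log2 ratio was 4.40 ± 0.24 and the pair was separated. The decoy Il1r2 exceeded Il1r1 by 20.5-fold, 2.54-fold and 34.6-fold, and with a log2 ratio of 2.66 ± 1.64 the pair was not separated. Without replicate 2 it met the rule, making 3 pairs. Il1rap over Il1r2 ranged from 1.13-fold in replicate 3 to 19.5-fold in replicate 2. Il18 was at least 2218-fold higher than Il18r1 in replicate 1 and at least 3622-fold higher in replicate 3, counting each 0 as 3 counts per library. In replicate 2, on 3 counts of Il18r1, the ratio was 5001 with a counting interval of 1710 to 24260. The second quantification, which assigned Il18r1 a level in every library, gave ratios of 3227, 832 and 2391, so the bounds hold for the first quantification only.

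**Figure D2:**
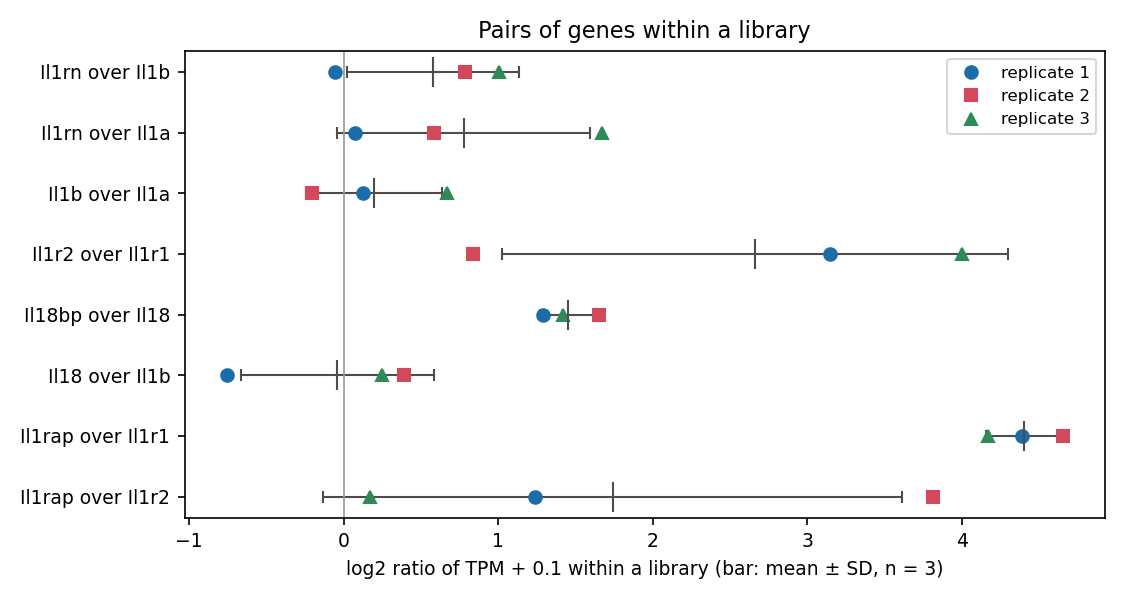
Log2 ratio of TPM + 0.1 within each library for 8 pairs of genes, with 1 marker shape per replicate and a bar for the mean ± SD (n = 3); the vertical line marks equal levels. Il18bp over Il18 (1.45 ± 0.19) and Il1rap over Il1r1 (4.40 ± 0.24) have narrow spreads, and Il1rn over Il1b and Il18 over Il1b cross 0.

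How far the genes varied between libraries was asked with tests fitted over all genes kept by a filter on low counts. All 6 of the 10 genes that passed it (Il18bp, Il1rn, Il1b, Il1a, Il18 and Il1rap) varied by more than counting error in a chi-square test with Benjamini-Hochberg adjustment, where 87.9% of the 11932 genes tested did so too. The share is near the background and singles out none of them. Without replicate 2, Il1rap no longer passed (adjusted p = 0.232 in the chi-square test of the other libraries), while Il1r2 entered the filter and passed (adjusted p = 0.0135). Il1r2 also passed the chi-square test without replicate 1 (adjusted p = 5.7e-15), with no filter (adjusted p = 2.7e-13) and in the second quantification (adjusted p = 6.0e-12).

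A stricter question was whether a gene varied more than others of its abundance, by an F test of its residual variance against the trend of edgeR's quasi-likelihood fit. Like the chi-square test, this fit used scaled counts, which are not corrected for transcript length as TPM is. Its variance ratios therefore need not rank the genes as their spreads in TPM do. None of the 6 passed (0 of 6), and of all 11932 genes 0% did, with 503 genes and 0 of the 6 under an unadjusted p of 0.05. Il1a had 5.54 times the trended variance (unadjusted p = 0.0609 and adjusted p = 0.933 in edgeR's fit) and Il1b 3.16 times (adjusted p = 0.933 in edgeR's fit). These ratios rest on which libraries enter. Without replicate 2 they were 37.6 for Il1a (adjusted p = 0.0797 in edgeR's fit) and 19.6 for Il1b (adjusted p = 0.196 in edgeR's fit). Without replicate 3 they were 0.355 and 1.12, and without replicate 1 they were 2.89 and 0.446. Il1rn had 0.349 times the trended variance, and Il18, Il18bp and Il1rap lay at 1.66, 1.49 and 1.88 times. Without replicate 2 the order of these 4 differed, with Il1rap at 0.196, Il18bp at 0.2498, Il1rn at 0.628 and Il18 at 1.22 times. The 2 quantifications were also compared, by limma on log2(TPM + 1) differences within a library, calling an adjusted p under 0.05 and a difference of at least 1. Of the 7 genes with enough signal (the 6 and Il1r2) 0 were called, against 1.66% of 10203 genes, and 0 of the 7 had an unadjusted p under 0.05. Their differences, second minus first, ran from -0.25 for Il1b to -0.04 for Il1r2, beside a median of -0.14 over all genes tested. The limma standard error was 0.181 for each of the 7, so the p-values of this comparison do not measure a gene's own spread.

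Transcript shares gave more detail than gene totals. They are model estimates that divide reads shared by transcripts of a gene. The 6 genes at 1 TPM or more throughout each had the same leading transcript in all 3 libraries and in both quantifications.

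For Il1rn the secreted-length transcript Il1rn-201 led, with 76.3%, 65.9% and 78.3% of the gene's transcripts in replicates 1, 2 and 3. The intracellular-length Il1rn-204 took 11.8%, 30.3% and 8.88%, or 33.1, 68.9 and 23.2 TPM, and so was highest in replicate 2 by share and by level. All 3 transcripts with the upstream start together took 12.1%, 30.4% and 8.89% (17.1% ± 11.6), and the downstream starts 87.9%, 69.6% and 91.1%. In the second quantification the upstream starts took 9.04%, 18.6% and 6.13%, again highest in replicate 2, but Il1rn-201 there took 73.17%, 78.03% and 75.99% and was not lowest in that library. Il1rn-204 runs 558 bases beyond the 3′ end of Il1rn-201, so reads from those bases count toward it whichever start the molecule had. Il1rn-202 (162 codons, downstream start) took 9.99%, 3.45% and 10.1%.

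Of the 6 genes, Il18 differed most between libraries in the share of a transcript, while its total differed least in the first quantification (1.12-fold). In the second its total differed 1.45-fold, against 1.22-fold for Il1rn. Il18-204 took 48.6%, 94.4% and 48.9%, Il18-202 33.1%, 0% and 32.6%, and Il18-203 18.2%, 5.63% and 18.5% in replicates 1, 2 and 3. Replicates 1 and 3 were thus nearly alike and replicate 2 stood apart. The second quantification placed Il18-202 at 21.8%, 0% and 19.4%. Il18-201, annotated with the same start, end and length as Il18-202, took 1.79%, 0.627% and 1.30% there, and 0% in every library of the first. Il18-204 and Il18-202 have the same 5 coding segments of 192 codons in all, and differ outside them; Il18-202 starts 9899 bases downstream. Il18-203 starts 10547 bases upstream of Il18-204 and codes for 78 codons, with 3 coding segments in common, so its lower share in replicate 2 does touch the coding sequence. Replicate 2 is the library with the high mitochondrial share and shorter fragments, and the part of either in these shares was not tested.

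**Figure D3:**
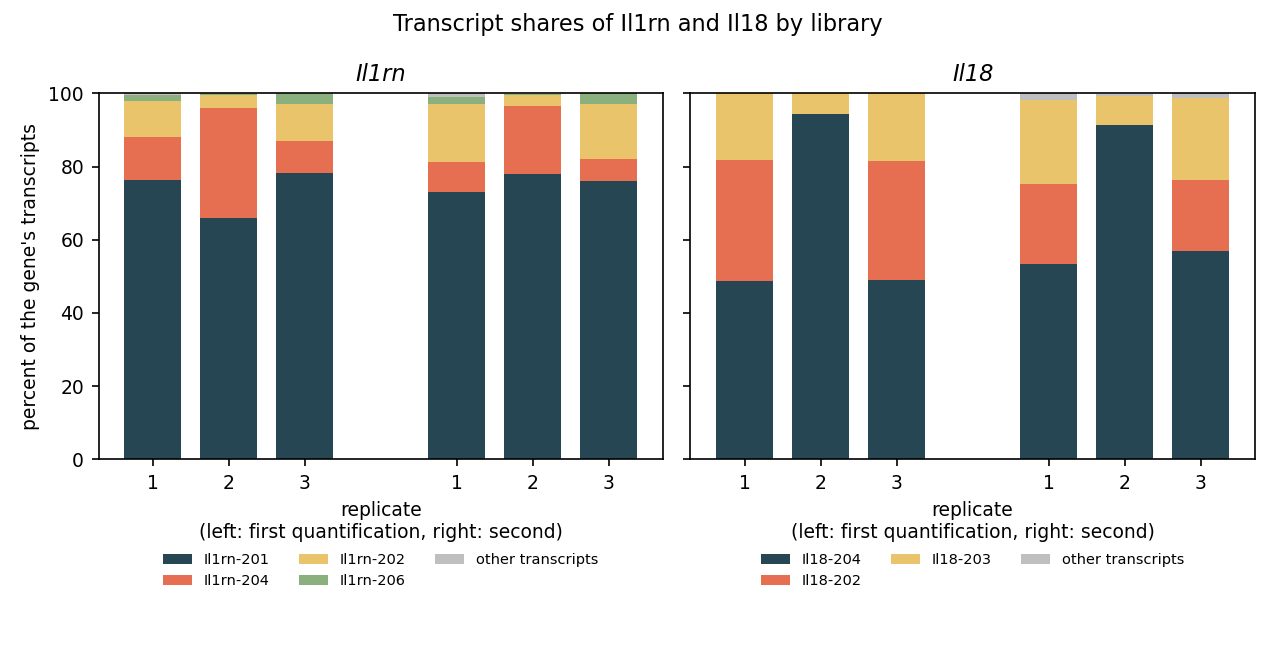
Stacked shares of annotated transcripts of Il1rn (left) and Il18 (right) in percent of the gene, for replicates 1, 2 and 3 in the first and second quantification; transcripts with a mean under 1% are pooled in grey. Il1rn-204 has its highest share in replicate 2 (30.3% in the first quantification, below Il1rn-201 at 65.9%), and Il18-202 is at 0% in that library.

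Among the other genes at 1 TPM or more throughout, Il18bp-201 took 68.1%, 71.6% and 68.8% and Il18bp-203 30.9%, 27.4% and 30.0%. The pair has the same coding segments and differs outside them, including in the start and by 298 bases at the 3′ end. The second quantification moved Il18bp-203 to 15.9% ± 4.01. For Il1rap, Il1rap-201 (570 codons), which has the length of the membrane-bound chain that signals, took 86.4%, 84.9% and 80.2%. The shorter Il1rap-206 (360 codons), which has the length of the soluble form, took 12.9%, 14.5% and 16.7%, and Il1rap-202 (685 codons) 0.65%, 0.56% and 3.03%. Il1a has 1 annotated transcript, and Il1b-201 made up 99.46% to 99.68% of Il1b. For the less abundant Il1r2, Il1r2-201 held 100%, 100% and 77.7% (70.8%, 100% and 80.8% in the second quantification), with a transcript annotated for nonsense-mediated decay, Il1r2-204, at 22.3% in replicate 3.

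The rest of the pathway was taken from lists of ligands, receptors, signalling, processing, and mRNA decay and stability. Of the other receptors, 1 of 6 reached 1 TPM in every library. This was Il1rl2, the interleukin-36 receptor chain, at 1.54, 1.42 and 1.22 TPM. Il18rap, the signalling partner of Il18r1, stood at 0.13, 0.04 and 0.14 TPM, and Il1rl1 at 0, 0.01 and 0.01 TPM. In the second quantification Il18rap was higher, at 0.338, 0.384 and 0.556 TPM. Sigirr, an inhibitory member of the receptor family, stood at 0.44, 0.08 and 0.30 TPM, and Il1rapl1 and Il1rapl2 had 0 counts in the first quantification. Interleukin-1, interleukin-18 and interleukin-33 receptors thus each had a ligand-binding chain under 0.1 TPM in the first quantification.

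The components below the receptor, which Toll-like receptors also use, were present. In receptor-proximal signalling, 13 of 14 genes reached 1 TPM in every library (median 21.3 TPM, beside 15.1 TPM over the 10350 detected protein-coding genes). The adaptor Myd88 (139 ± 32.3 TPM) and Tab2, which links TRAF6 to the kinase TAK1 (120 ± 107 TPM), were highest. The Pellino ubiquitin ligases Peli2 (1.52 ± 0.449 TPM) and Peli3 (0.227 ± 0.0833 TPM) were lowest. Tab2 stood at 56.6, 244 and 58.4 TPM, so its mean rests on replicate 2.

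All 15 genes of processing and release reached 1 TPM in every library (median 66.6 TPM). Casp1, the protease that cuts both precursors, was highest at 420, 302 and 420 TPM, followed by Ninj1, which ruptures the membrane of dying cells, at 352, 164 and 245 TPM. The sensors Nlrc4 (4.01 ± 0.829 TPM) and Nlrp1b (2.03 ± 0.9 TPM) were lowest. Of the 6 listed genes of mRNA decay and stability, 6 reached 1 TPM in every library (median 33.8 TPM). Zfp36, tristetraprolin, which binds AU-rich elements of cytokine mRNAs, stood at 107 ± 22.3 TPM and its relative Zfp36l2 at 76.7 ± 2.71 TPM, while Zfp36l1 (27.9 ± 17.1 TPM) and Rc3h1, roquin-1 (5.39 ± 0.331 TPM), were lowest. Variation beyond counting error was called in 13 of 14, 14 of 15 and 5 of 6 genes of these lists, beside 87.9% of all genes.

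**Figure D4:**
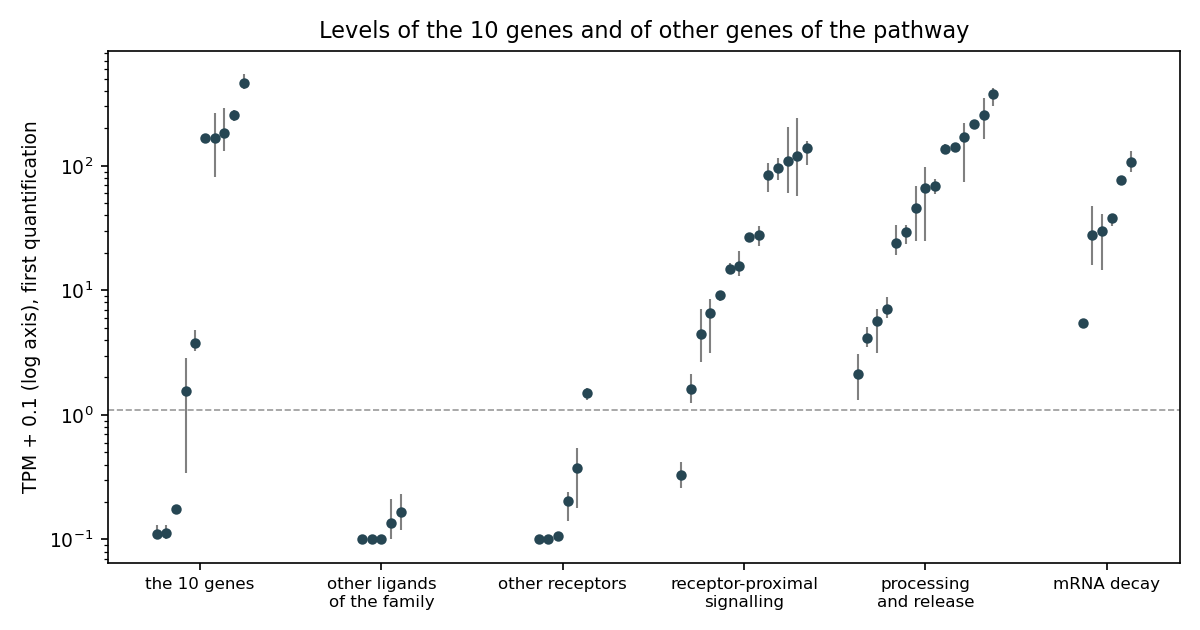
Mean TPM + 0.1 (points, log axis) of each of the 10 genes and of each gene in 5 pathway lists, with lines from the lowest to the highest library; the dashed line marks 1 TPM. Genes in the lists of receptor-proximal signalling, processing and mRNA decay (which includes stability factors) lie above the line except Peli3. Other ligands and 5 of 6 other receptors lie below it.

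Genes whose pattern over the 3 libraries lay nearest to each of the 6 genes were found by the Euclidean distance between deviations of log2(TPM + 1) from each gene's own mean, among the 6263 protein-coding genes whose mean was 10 TPM or higher. For Il1a the nearest was Nlrp3, the sensor of the inflammasome that releases interleukin-1 beta, at a distance of 0.195, with 68.4, 43.8 and 24.9 TPM in replicates 1, 2 and 3. Rasgrp1 (0.288) and Edn1, endothelin-1 (0.320), came next, and no gene lay within 0.1 of Il1a. Near Il1b, Gbp10 (distance 0.0433, with 22.1, 9.08 and 9.04 TPM), Tma16 (0.0696) and Fam102b (0.0959) were the 3 within 0.1. Over only 3 libraries, near matches were common for the others. Within 0.1 of Il1rn lay 144 genes (nearest Pdk3, Ubr2 and Tbc1d9b), and within 0.1 of Il18 141 (Tmem33, Plpbp and Strn3). Il18bp had 153 such genes (Gtf2f1, S100pbp and Rbm33) and Il1rap 143 (Ccdc71, Larp7 and Ptbp3). Il18bp, Il1rap and the nearest genes named for them were each highest in replicate 2.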

How the data were processed

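Each library was deposited with 2 quantifications against mm10 and GENCODE M21, per the notes that came with them. The authors' first set gives expected counts (a model divides shared reads), TPM, and each transcript's percent of its gene, per the file headers. Their second set gives estimated counts and TPM by transcript, per the file headers, and was summed here to genes. The aligner, counter and strand setting are not given in the sources used. Tables held 55536 annotated genes and 26345 other entries, which took at most 0.0875% of counts and were left out. Expected counts totalled 24596382 to 54016971 per library.

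The 10 genes were matched by symbol, and they and the lists were chosen with earlier results of these data known. Expected counts were rounded, filtered with edgeR's filterByExpr (minimum count 10, minimum total 15) and scaled by TMM factors (1.01, 0.886 and 1.12). Variation was tested by a chi-square test of homogeneity and by edgeR 4.0.16 (quasi-likelihood fit with an intercept, residual variance against the trend, one-sided F test). Quantifications were compared with limma 3.58.1 on log2(TPM + 1). P-values were adjusted by Benjamini-Hochberg over all genes tested, with a threshold of 0.05. Scripts were tested on simulated data. A count of 0 was given a limit of 3 counts, and Il18 over Il18r1, planned as a ratio with a pseudocount, is given as bounds from it. Alternatives were other size factors, no filter, other pseudocounts, CPM, the second quantification and leaving out each library.

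Genes named were the 10, the 2 highest and 2 lowest of each pathway list, all other receptors, the 3 nearest in pattern, and genes overlapping on the opposite strand. Of the 10 symbols listed as other ligands, 5 were found in M21. The dendritic, endothelial, mast cell and basophil lists had 1 of 7, 2 of 5 and 0 of 6 genes at 1 TPM in every library. Promoter windows came from RefSeq, where 10 of 10 genes matched.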

Additional observations from a re-analysis of the deposited data

Results flagged for a closer look

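Signal appeared in the second quantification in libraries where a receptor gene had 0 counts in the first, for Il1rapl2 in every library and for Il18r1 in 1. Il1rapl2 stood at 3.71, 18.98 and 5.93 TPM in replicates 1, 2 and 3 of the second quantification, where 3 counts in the first would have been 0.0715, 0.0289 and 0.0392 TPM. All of it was assigned to Il1rapl2-203, a transcript annotated as a retained intron. The difference between quantifications was 3.12 on the log2(TPM + 1) scale (adjusted p = 5.75e-63 in limma). That p-value rests on a standard error of 0.181, the same value as for Il1b, and does not measure the spread of Il1rapl2 itself. Il18r1 in replicate 3 was at 0.0663 TPM in the second quantification, above the 0.0426 TPM that 3 counts in the first allow.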

How the results depend on the processing

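The counts of genes beyond counting noise (6 to 7), beyond the variance trend (0), differing between quantifications (0), at 1 TPM or more in every library (6 to 7) and with 1 leading transcript throughout (6) stayed within 1.5 times their main values under all alternatives run. Pairs meeting the separation rule numbered 2, and 2 to 4 when each library was left out. Without replicate 1 the pairs added were Il1rn over Il1b and Il18 over Il1b. Log2 ratios that changed sign were Il1b over Il1a, at -0.45 with CPM and from -0.038 to 0.40 when each library was left out, and Il18 over Il1b, at 0.16 in the second quantification and from -0.26 to 0.32 when each library was left out; the cause was not tested. Of single genes' calls beyond counting noise, 35 of 36 kept their side of the threshold, the exception being Il1rap without replicate 2. Mean levels moved by more than 1 SD in 3 of 50 cases, all in the second quantification (Il1rn 227, Il1r1 0.101 and Il18r1 0.114 TPM). No paired contrast between conditions was possible because the libraries form 1 group. Depth limits Il33, Il18r1 and Il1r1, which rest on at most 22 counts; Il1r1 was listed above both others in every library of the first quantification, by less than the 3-count limit for Il18r1 in replicate 1, and below Il18r1 by mean in the second.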
